A study of Mus musculus with 17 samples.

Results

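The cells described here are 99 of 2999 single cells of mouse pancreas, chosen by their measured RNA: Krt19, a keratin of pancreatic duct epithelium, was present, and islet hormones and the acinar protease gene Prss2 were low. On the submitters' scale of transcripts per 100000, a member had Krt19 at 10 or more, Prss2 under 1500, and each of Ins2, Gcg, Sst and Ppy under 3000. Cells were profiled with mSTRT-seq, a modified single-cell protocol that counts RNA molecules by unique molecular identifiers (UMIs). All 17 libraries (12 groups) came from Ngn3-Cre; Rosa-RFP mice and were sorted for RFP, so the libraries are set by where the Cre, driven by the endocrine progenitor gene Ngn3 (Neurog3), has switched on the reporter, and by the purity of the sort. The 3 Control libraries came from adult males given citrate buffer. The streptozotocin (STZ) libraries came from males given a single dose of 200 mg/kg at an age of 2 months; streptozotocin is a toxin taken up by beta cells. With insulin implants there was 1 library each at days 6, 30 and 42 and months 2, 5 and 9, and 2 at day 12; in the month 9 mice implants were discontinuous in the last 2 months. A further 2 month 2 libraries came from mice without implants. Untreated pups gave 1 library at postnatal day 3 (P3), 2 at P12 and 1 at P21. The labels do not say how many mice a library holds, so tests over libraries measure the spread between these libraries.

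Pancreatic ducts carry the enzymes of acinar cells to the gut and add a bicarbonate-rich fluid to them. Duct cells form a polarized epithelium with keratins and tight junctions, depend on the transcription factor Sox9, and have active Notch signalling. In the fetus, Neurog3-expressing endocrine precursors arise from this epithelium.

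The label was checked against its markers, taking 10 or more UMIs per 100000 UMIs of a cell as positive, here and throughout. Spp1, the secreted phosphoprotein osteopontin, was positive in 95 members and Mgst1, a microsomal glutathione transferase, in 92. Lcn2, the iron-siderophore-binding lipocalin 2, was positive in 62 and Sox9 in 68. Cck and Gip, the gut hormones cholecystokinin and glucose-dependent insulinotropic polypeptide, were each positive in 1 member, the same cell, so they do not mark the members. Members held a median of 19 of the 30 ductal genes listed, which include the rule gene Krt19. Grouping the members by their 300 most variable genes set apart 8 cells that go against the label. Of these, 5 cells, all from STZ day 6, were intestinal epithelium-like, with 9 to 11 of 32 intestinal and gastric genes and 9 to 13 ductal genes. The other 3, all from STZ day 12 replicate 1, were immune-like, with 4 to 15 immune genes and 2 to 4 ductal genes. The remaining 91 cells had 12 to 24 ductal genes each and are called the Spp1-rich cells. Ductal counts thus overlap between them and the intestinal epithelium-like cells, of which the Cck and Gip cell had 13. The name is a label for the group and no cut on Spp1. Its lowest cell had Spp1 at 143, while the Cck and Gip cell, set apart, had 1115.

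Of 206 cells with Krt19 at the threshold, 107 were not members: 67 had too much hormone RNA, 31 too much Prss2 and 9 both. Just inside the Krt19 threshold lay a cell at 10.1 and just outside one at 9.65. The highest member had Prss2 at 1032, and the lowest cell excluded by Prss2 had 1717. For Ins2 these values were 2920 and 3327, for Gcg 2394 and 3133. Members had a median of 43150 UMIs (7751 to 463168), near the 50925 of endocrine cells and below the 133802 of acinar cells. Where barcodes could be read (10 libraries), 94 of 96 occurred in at least 2 libraries, as in a plate design; no raw file served 2 cells and no 2 cells were identical. No doublet caller was run, since the labels describe cells moved singly by mouth pipette.

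Members were found in 10 of the 17 libraries, and libraries of 1 group did not hold like shares. STZ day 12 replicate 1 held 33 members in 218 cells, 15.1% (exact Clopper-Pearson 95% interval 10.7 to 20.6%). STZ day 12 replicate 2 held 0 of 182 cells, which allows up to 1.65% by the limit of 3 counts used here for a count of 0. These intervals and limits cover counting error only. Among controls, replicate 1 held 13 of 295 cells (4.41%), replicate 2 held 3 of 270 (1.11%), and replicate 3 held 0 of its 22 cells. Day 6 held 7 of 246 (2.85%), day 30 held 3 of 277 (1.08%), day 42 held 11 of 240 (4.58%) and month 2 held 3 of 181 (1.66%). No member was seen in 153 cells of month 5 or 189 cells of month 9, which allow up to 1.96% and 1.59%, nor in 76 and 51 cells of month 2 without implants. In pups, P3 held 9 of 204 (4.41%), P21 held 16 of 243 (6.58%), P12 replicate 1 held 1 of 78 and P12 replicate 2 held 0 of 74. One STZ library thus stood above all others, while its replicate had none.

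**Figure D1:**
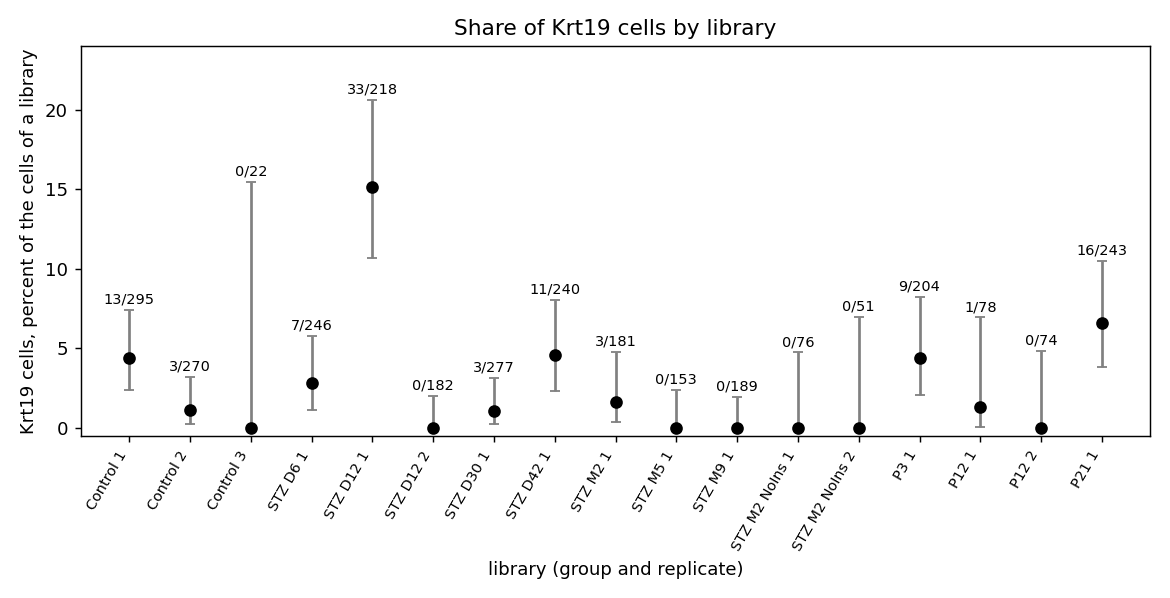
Share of Krt19 cells among all cells of each of 17 libraries, in percent, as points with exact 95% Clopper-Pearson intervals; the numbers are members over cells. STZ day 12 replicate 1 lies at 15.1%, all other libraries at 6.58% or below.

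The mean share over 8 STZ libraries with implants was 3.16% ± 5.10 (SD), against 1.84% ± 2.29 (n = 3) in controls, a difference of 1.32 points that an exact two-sided permutation test over 165 arrangements did not separate from the spread of libraries (p = 0.897; smallest possible 0.0121). Without STZ day 12 replicate 1 the difference turned to -0.387 points. The 4 postnatal libraries averaged 3.07% ± 2.99, 1.23 points above the controls (exact permutation p = 0.457, where 35 arrangements allow no p below 0.0571). In some libraries, members also gathered in single sets of raw read files. In STZ day 12 replicate 1, one set held 24 members in 67 cells and another 7 in 30, while the other sets held 2 in 69 and 0 in 52. In Control replicate 1, one set held 10 in 50, and the others held 3 in 76, 0 in 82 and 0 in 87. In day 42, one set held 6 in 30. Members were spread more evenly in day 6, with 3 in 74, 2 in 48, 1 in 60 and 1 in 64. Control replicate 2, day 30 and month 2 had too few members to show gathering. For the pup libraries no such sets were read. The sets with 24 and 7 members in day 12 held 14 and 0 acinar cells, and those with 10 and 6 held 1 and 0. How cells were assigned to these sets is not given in the sources used here, so how cells were sampled and their abundance in the tissue cannot be told apart. The same holds for fewer cells and less Krt19 RNA per cell, since Krt19 set the membership.

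The rule chose the members by their contrast to endocrine and acinar cells, so the following levels are descriptions with no test. Levels are UMIs per 100000 UMIs, averaged over the cells of a library, for the 6 libraries with at least 5 members: Control replicate 1, STZ days 6, 12 (replicate 1) and 42, P3 and P21. Log2 ratios, with 1 added to each level, compare members with other cells of the same library, in 6 libraries for endocrine cells and 4 for acinar cells. Krt19 averaged 113 in Control replicate 1, 116 in day 6, 472 in day 12, 77.6 in day 42, 68.7 in P3 and 136 in P21, against at most 2.78 in the endocrine cells of any of them and 0.414 to 13.6 in the acinar cells. Day 12 is the high library in both members and acinar cells. Spp1 averaged 1913, 938, 1311, 1638, 728 and 1201 in the same order, and 23.7 to 47.6 in endocrine cells. The day 6 mean joins 2 Spp1-rich cells at 2168 and 3262 with 5 intestinal epithelium-like cells at 0 to 1115. The log2 ratio of Spp1 was 5.14 ± 0.32 (SD, n = 6) to endocrine and 6.0 ± 2.27 (n = 4) to acinar cells. Spp1 was not confined to members, since 29.2% of endocrine cells and 8.85% of acinar cells were positive. Mgst1, at 48.0 (day 6) to 126, was rarer than Spp1 in both classes, with 2.70% of endocrine and 6.64% of acinar cells positive. The log2 ratios of Mgst1 were 4.73 ± 0.85 and 4.45 ± 0.73. Its 2 Spp1-rich cells of day 6 had 123 and 176, and the other 5 had 0 to 36.3. Lcn2 differed widely: library means ran from 5.84 in P3 to 112 in day 12, and single members from 0 to 933. A further 82 cells had Prss2 and hormones below the limits, but Krt19 under 10. Their means, pooled over libraries, were 145 for Spp1, 23.8 for Lcn2 and 13.9 for Mgst1. Pooled members had 1335, 59.9 and 94.5, and pooled acinar cells 25.4, 0.833 and 2.61. These markers were thus not confined to members.

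**Figure D2:**
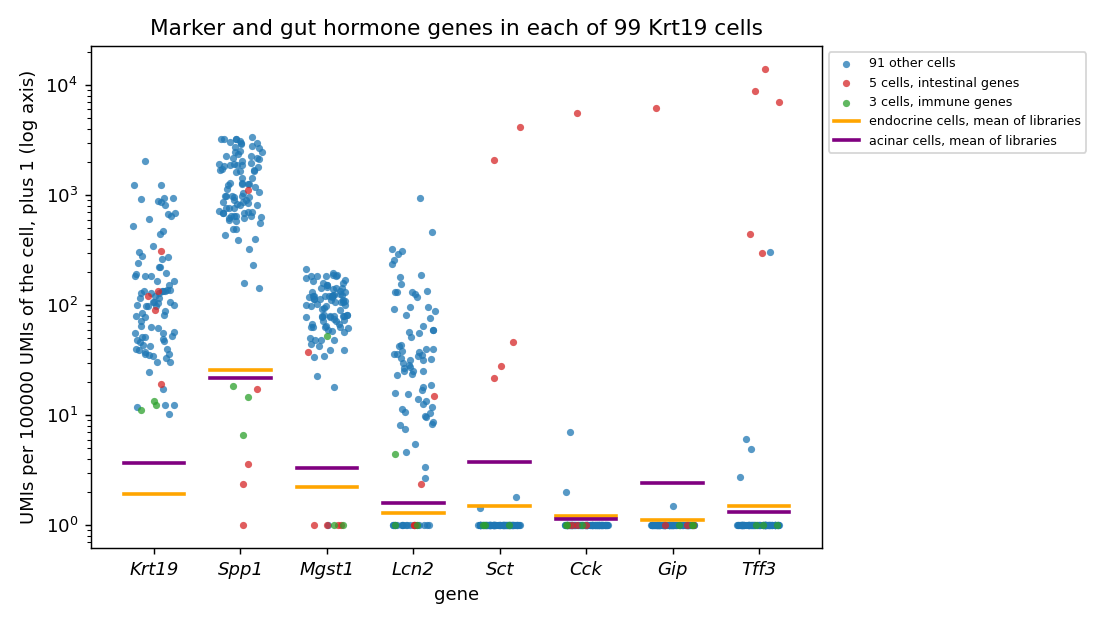
Level of 8 genes in each of the 99 members (points; UMIs per 100000 plus 1, log axis), with bars for the mean over libraries in endocrine and acinar cells. Spp1 and Mgst1 lie high in the 91 Spp1-rich cells (blue), whereas Sct, Cck, Gip and Tff3 are high in some or all of the 5 intestinal epithelium-like cells (red).

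Of 10239 genes measured, 1106 (10.8%) averaged at least 2-fold higher in members than in both other classes, and 110 did so at least 4-fold with a mean of 20 or more in members. Against endocrine cells alone 12.5% were 2-fold higher and 8.66% lower; against acinar cells 45.1% were higher and 2.22% lower. Acinar cells spend much of their RNA on enzymes: the median gene stood 0.92 higher (log2) in members than in acinar cells and 0.13 higher than in endocrine cells, and ratios are best read against those shifts. The 25 genes with the largest smaller ratio were higher in members in 6 of 6 and 4 of 4 libraries. After Krt19 (5.60 and 5.32) and Spp1 came Apoe, the lipid carrier apolipoprotein E, at 4.80 and 5.22, and Ces1d, a carboxylesterase, at 4.75 and 4.54. Anxa2, an annexin of the cell cortex, stood at 4.78 and 4.52. Cp, the ferroxidase ceruloplasmin, stood at 4.45 and 4.44. S100a6, a small calcium-binding protein, stood at 4.41 and 5.49, but its 4 positive members in day 6, where the mean was 199, were all intestinal epithelium-like. Without the 8 aberrant cells the ratios were 4.19 and 4.81, over 5 and 3 libraries. Others were Dbi (4.31 and 3.72), an acyl-CoA-binding protein, the growth factor Gas6 (4.47 and 3.72), the keratin partner Krt8 (3.68 and 3.70), and Wfdc2 (3.81 and 3.81), a whey acidic protein family member secreted by epithelia. Clu, a secreted chaperone, averaged 827 ± 316 (n = 6), and was also positive in every acinar cell.

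**Figure D3:**
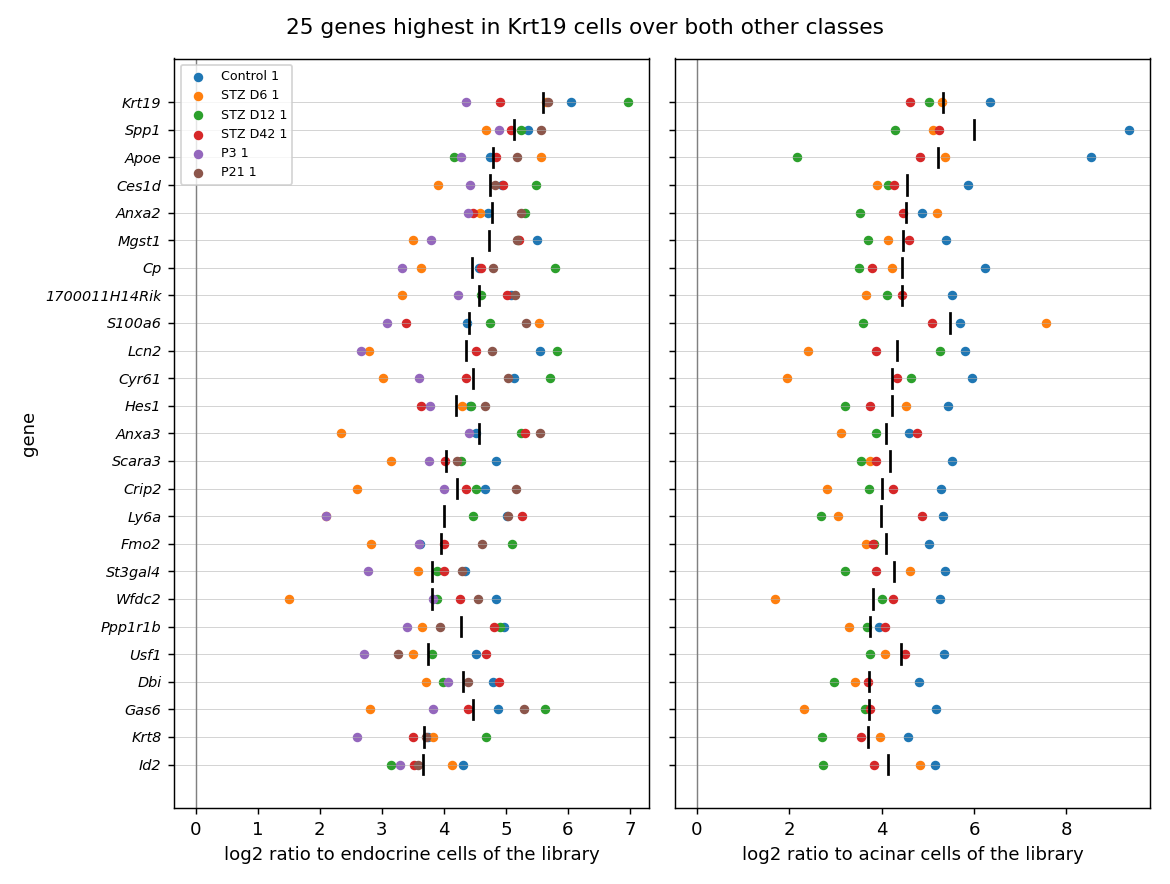
Log2 ratio of members to endocrine cells (left, 6 libraries) and to acinar cells (right, 4 libraries) of the same library, for the 25 genes with the largest smaller ratio; points are libraries and black bars their means. Every point lies above 0.

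Genes were then read in lists by role. In the ductal list 25 of the 29 measured genes were 2-fold higher than in both classes, against 10.8% of all genes. The median log2 ratios of the list were 3.27 and 3.64. Krt19, by which the rule chose the members, is among the 25 and counts in these medians. Krt18, Anxa3, Ambp, Cldn7 and Epcam were also among the 25. The chloride channel Cftr was sparse, at a mean of 2.05 and positive in 13 members, as was the secretin receptor Sctr, positive in 4. Bicarbonate and fluid secretion genes were 2-fold higher than in both classes in 11 of 20. Atp1b1, a subunit of the sodium pump, averaged 121 with ratios of 1.98 and 5.11. Kcne3, a potassium channel subunit, averaged 14.6 with ratios of 3.40 and 3.39. Car2, carbonic anhydrase 2, averaged 8.80 with 36 members positive. The water channels Aqp1 and Aqp5 were positive in 6 and 9 members.

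Of 26 epithelial junction genes, 20 were higher than in both classes. Epcam, an adhesion molecule, averaged 119 ± 19.1 (n = 6) and the claudin Cldn3 80.3 ± 11.9. Their ratios were 1.85 and 4.19 for Epcam and 3.86 and 3.46 for Cldn3. Detoxification genes were higher in 14 of 25; after Mgst1 the leaders were Gpx4 (62.7), Gpx1 (44.7) and Gstt1 (33.3). Antigen presentation and interferon genes were higher in 15 of 21. B2m, the light chain of class I molecules, averaged 268 ± 112, and its ratios were 3.91 and 3.59. In the inflammation list 10 of 20 were higher, among them Cd14 (20.4) and the immunoglobulin receptor Pigr (24.5); the Reg3 genes, which acinar cells also express, were lower than in acinar cells (Reg3b -5.31). Mesothelial genes were 3 of 5 measured, Efemp1, Cav1 and C3, at 6.74 to 10.7 on average; the defining marker Msln averaged 4.67 and Wt1 was not positive in any member.

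Among duct and progenitor transcription factors and Notch genes, 15 of 27 were higher than in both classes. Sox9 averaged 40.5 in Control replicate 1, 15.9 in day 6, 15.3 in day 12, 34.8 in day 42, 26.7 in P3 and 32.4 in P21, against 0.940 to 1.77 in endocrine cells. Day 12 was low, and so was day 6, where the 2 Spp1-rich cells had 35.2 and 69.3 and the other 5 members at most 4.03. Onecut1 (17.5; positive in 65 members) and Onecut2 (16.8; 32) accompanied it. Hes1, a Notch-induced repressor, averaged 73.0 ± 12.8 (n = 6) with ratios of 4.20 and 4.23, and in day 6 the 2 Spp1-rich cells had 214 and 317 and the other 5 at most 24.2; the receptor Notch2 averaged 3.42. Neurog3 was positive in 0 members, and 1 P3 member had it at 1.02, below the level counted. Ptf1a, the acinar regulator, was positive in 2.

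Cyr61 and Ankrd1, both widely used readouts of the YAP and TEAD factors that respond to cell shape, were also high. Cyr61 was positive in 66 members and had library means of 63.9, 10.8, 109, 57.9, 23.5 and 64.0 in the order above, with ratios of 4.48 and 4.22; the 5 intestinal epithelium-like cells of day 6 had none. Ankrd1 was positive in 28 members, averaged 17.3, and had ratios of 3.37 and 2.89. The 250 bases before the RefSeq start of each gene (GRCm38.p6, which shares its coordinates with mm10) are shown because both genes are TEAD readouts; capitals mark GGAATG or its reverse complement CATTCC, the hexamer core of the TEAD motif, searched on both strands.
Cyr61, chr3:145649986-145650235, minus strand: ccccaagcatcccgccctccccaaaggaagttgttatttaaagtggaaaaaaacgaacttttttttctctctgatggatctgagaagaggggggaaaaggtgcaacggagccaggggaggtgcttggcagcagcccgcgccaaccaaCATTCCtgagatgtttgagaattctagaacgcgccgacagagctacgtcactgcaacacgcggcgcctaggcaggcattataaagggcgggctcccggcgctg
Ankrd1, chr19:36119845-36120094, minus strand: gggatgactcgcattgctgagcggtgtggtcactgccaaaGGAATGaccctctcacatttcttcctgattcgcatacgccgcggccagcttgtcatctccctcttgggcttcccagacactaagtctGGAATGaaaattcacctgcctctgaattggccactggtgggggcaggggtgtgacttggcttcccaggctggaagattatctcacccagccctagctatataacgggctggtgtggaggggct
The match in Cyr61 begins 103 bases before the start, and those in Ankrd1 begin 210 and 123 bases before it. Of 32851 promoter windows of this length, 12.6% hold the hexamer on either strand, so a match alone is common, and neither of 2 windows of Spp1, which was also far higher in members, holds it. It is a match of letters and no measurement of binding.

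Hormone and enzyme RNA in members, which the rule bounds, mostly lay near the level in the cells that do not make it. Ins2 averaged 1347 in the members of Control replicate 1 and 1374 in its acinar cells, but 10109 in its endocrine cells. In STZ day 6 these values were 218, 163 and 3019, and in day 42 they were 50.4, 77 and 2088. Members and acinar cells were thus both higher in the control library and lower in the STZ libraries. The mean log2 ratio of members to acinar cells was -0.03 for Ins2, 0.42 ± 1.28 (SD) for Gcg, -0.32 for Sst and -0.03 for Ppy. In day 42 Gcg averaged 339 in members, with 2314 in the highest, against 69.7 in acinar cells. In month 2 Ins2 averaged 151 in the 3 members and 45.2 in acinar cells. Likewise Ctrb1 and Clps, both acinar products, stood at -0.21 and 0.33 against endocrine cells of the same libraries. Of 32 islet genes measured, 30 were at least 2-fold lower than in endocrine cells, against 8.66% of all genes. Of 28 acinar genes, 27 were at least 2-fold lower than in acinar cells, against 2.22% of all genes. These counts include the rule genes Ins2, Gcg, Sst and Ppy, and Prss2, whose low levels in members the rule set. The islet gene Nkx6-1 had ratios of -1.82 and 0.71, and Hhex, which ducts also express, had 2.75 and 4.40 with 91 members positive.

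Peptide hormones other than those of the islet were rare. Pyy was positive in 90 members and Iapp in 88, but both averaged at or below their level in acinar cells (log2 ratios -0.08 and -0.51). Endothelin Edn1 was positive in 12 members, 5 of them in P21 and 4 in STZ day 12, and in 0.05% of endocrine cells. Ghrl, the gene of ghrelin, was positive in 10 members: 5 of 9 in P3, 4 of 16 in P21 and 1 of 7 in day 6. In the same P3 and P21 libraries endocrine cells averaged 113 and 51.8, above the members' 58.7 and 6.72. The P3 mean rests on 1 member at 440. That cell had 376292 UMIs, 25 islet genes and 18 ductal genes, and a second P3 cell, at 24 islet genes, had Pyy at 3280; whether these are single cells was not tested. Angiotensinogen Agt was positive in 8 members and Sct, the gene of secretin, in 5.

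Cck and Gip rested on 1 cell of STZ day 6. It had Gip (chr11:96024545-96030831) at 6247, Cck (chr9:121489824-121495694) at 5610 and Sct at 2080, with Spp1 at 1115 and Krt19 at 18.1. It also had Scg2, a granule protein, at 296, the processing enzyme Cpe at 460 and the brush border enzyme Sis at 339. This cell held 3099 Gip UMIs, while the endocrine cell with the highest Gip level held 9, a level of 27.5. Outside the members, the next highest cell of the library was an acinar cell with Gip at 1501 and Cck at 134, from another set of read files. That deeper cell held 5194 Gip UMIs among its 345996 UMIs, and the member's 3099 were among 49610. Sct was also high in an acinar cell of STZ day 12 replicate 2, at 1722. A second member had Sct at 4186, the granins Chgb at 2502 and Chga at 515, and Tph1, which makes serotonin, at 404, with Krt19 at 313 and Spp1 at 16.2. The other 3 intestinal epithelium-like cells had goblet cell genes: Tff3, a trefoil peptide, at 6955, 8887 and 14053, the mucin Muc2 at 1566, 2413 and 1323, and Spp1 at 0 to 2.64. All 5 came from STZ day 6, whose other 2 members were Spp1-rich cells. A P3 member with 392305 UMIs had 5 intestinal genes, with Tff3 at 305 and Spink4 at 191, beside Spp1 at 323 and 19 ductal genes, and stayed with the Spp1-rich cells. These 5 were the members with Sct at 10 or more. Without the 8 aberrant cells Cck and Gip averaged 0.143 and 0.0109, and the ratio to endocrine cells was -0.13 for Cck and -0.01 for Gip.

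The 3 immune-like cells had Krt19 at 10.2, 11.3 and 12.5, beside the threshold, and Spp1 at 5.64 to 17.5. Of these, 2 had Gzma (1890 and 2008) and Ccl5 (2669 and 1200), products of cytotoxic lymphocytes, and all 3 had Ptprc, the leukocyte antigen CD45 (20.5 to 209). Another cell of that library had 16 immune genes beside Spp1 at 688 and 12 ductal genes, and stayed with the Spp1-rich cells.

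The Spp1-rich cells were not of one kind. They fell into 4 sub-clusters of 33, 23, 19 and 16 cells, which are called by number. Since the genes that follow defined the clusters, they are given as description. Sub-cluster 1 led in Pigr (36.1 against 9.74 in the other members), the homeobox factor Prox1 (36.0 against 6.39), the claudin Cldn10 and Ambp, a plasma proteinase inhibitor precursor. The acinar genes Pnlip (240 against 85.3), Ctrl (179 against 60.1) and Cela1 (256 against 99.3) were also among its 15 leading genes. Sub-cluster 2 led in the membrane proteins Tm4sf1 and Tspan8, in S100a6 and in Ly6a (101 against 20.7). Sub-cluster 3, which held all 9 P3 members, led in the noncoding RNA Meg3 and in cell cycle genes. Sub-cluster 4 led in S100a6 (255 against 60.1), the heat shock protein Hspb1 (274 against 43.9), caveolin Cav1 and Krt19 (724 against 129). The acinar genes Cela2a (36.3 against 12.1) and Pnlip (220 against 121) and the immunoglobulin gene Igha (77.9 against 1.76) were also among its leading genes. It had a median of 18452 UMIs, against 40565, 71431 and 66682 in sub-clusters 1 to 3, and 12 of its 16 cells came from STZ day 12 replicate 1; the part of depth and of that library was not tested.

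S100a6 and Prox1 were rarely positive in one cell. Of 91 Spp1-rich cells, 37 had S100a6 alone, 31 Prox1 alone, 5 both and 18 neither. In Control replicate 1 the counts were 5, 6, 0 and 2, in STZ day 12 they were 14, 8, 3 and 5, in day 42 they were 4, 5, 0 and 2, and in P21 they were 10, 4, 0 and 2. Pooled over libraries, cells with S100a6 alone and cells with Prox1 alone had median UMIs of 43150 and 45941. Depth was not alike within libraries. In day 42 cells with S100a6 alone had 65838 to 206709 UMIs and those with Prox1 alone 33695 to 149452. For STZ day 12 the ranges were 8876 to 94790 and 16553 to 88516. The part of depth and library in the pooled levels that follow was not tested. Cells with S100a6 alone had a median Krt19 of 189, Tspan8 of 87.4 and Anxa3 of 83.8. Those with Prox1 alone had Krt19 at 47.3, no Tspan8 or Anxa3 at the median, and higher Spp1 (1975 against 900), Apoe (760 against 226) and Cp (104 against 38.3). Sox9 was positive in 30 of the 31 cells with Prox1 alone and in 19 of the 37 with S100a6 alone. Tspan8 and Cldn10 split the cells in like manner, with 39 Tspan8 alone, 35 Cldn10 alone, 7 both and 10 neither. Prox1 and Cldn10 are leading genes of sub-cluster 1, and S100a6 and Tspan8 of sub-clusters 2 and 4. The second pair is thus no separate support for the first. Apoe and Cp also lead sub-cluster 1, Anxa3 sub-clusters 2 and 4, and Krt19 sub-cluster 4. Their levels above are therefore description and no support for a split.

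**Figure D4:**
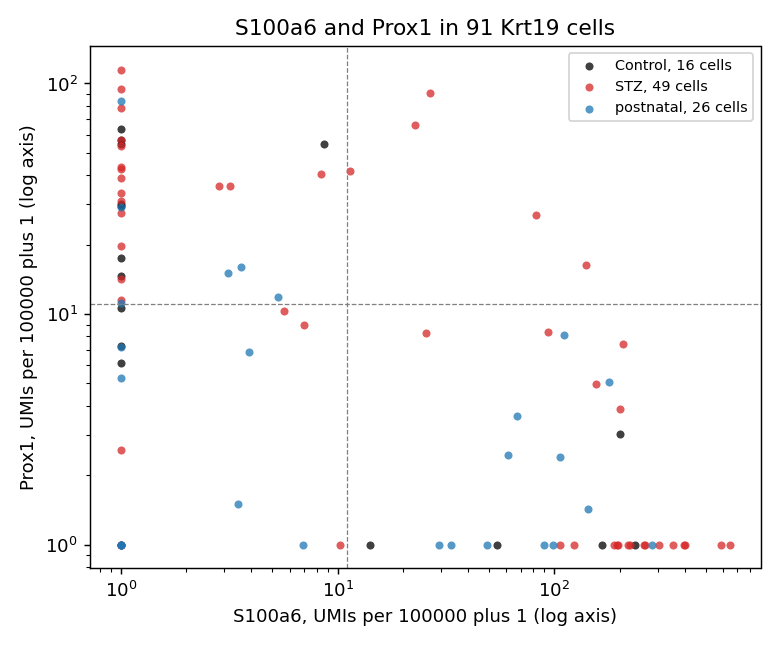
S100a6 against Prox1 (UMIs per 100000 plus 1, log axes) in each of the 91 Spp1-rich cells, by treatment; dashed lines mark the level counted as positive, and cells with neither overlap at the lower left. Of the cells, 5 lie above both lines.

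Members from P3 differed in level from those of other ages; each library was 1 sample here, so these are values with no test. Meg3 was positive in all 9 P3 members (25.6 to 160), in 4 of 16 in P21 (0 to 20.7) and in 0 of 13 in Control replicate 1 (0 to 4.06). The 1 P12 member had it at 20.4. It was also positive in 1 of 7 members in day 6, an intestinal epithelium-like cell at 86.7, and 1 of 11 in day 42, at 13.4. B2m averaged 49.6 in P3, 262 in P21, 350 in Control replicate 1 and 104 in the 3 members of Control replicate 2, and the Spp1-rich cells of STZ day 12 and day 42 had 272 and 283. Endocrine cells were also lowest in P3 among the 6 libraries, at 4.30 against 9.87 to 24.9. Pigr averaged 0.0295 in P3, 4.49 in P21 and 25.4 in Control replicate 1.

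Dividing cells were counted as those with at least 8 of 26 cell division genes positive. They were 13 of 99 members, against 24 of 2001 endocrine and 6 of 723 acinar cells. By library they were 5 of 9 in P3, the 1 member of P12, 0 of 16 in P21, 2 of 13 and 1 of 3 in the controls, 3 of 33 in STZ day 12 replicate 1 and 1 of 11 in day 42. No dividing member was seen in days 6 and 30 or month 2, with 7, 3 and 3 members. Of the 3 in day 12, 1 was an immune-like cell.

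**Figure D5:**
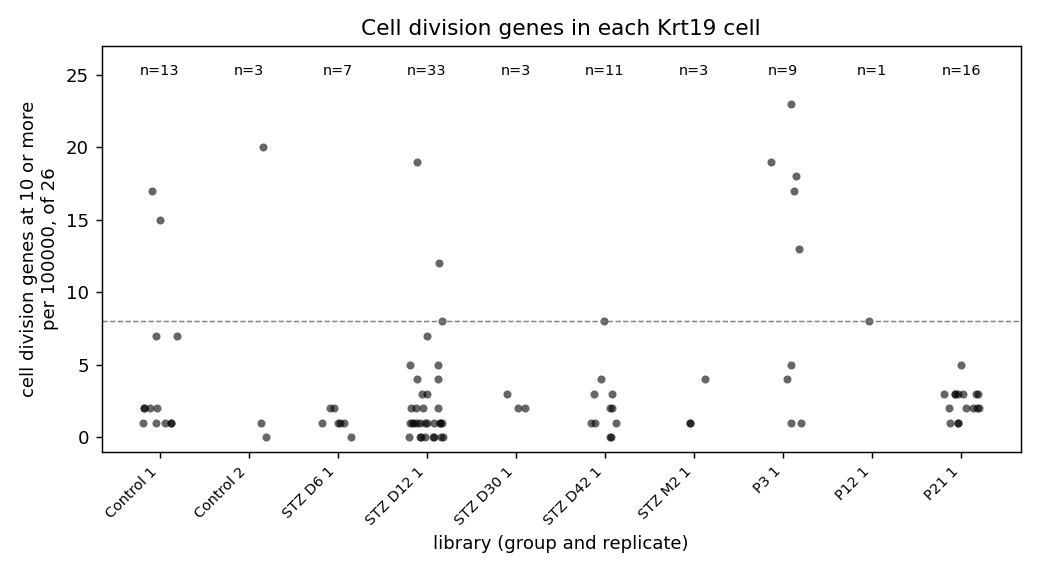
Number of 26 cell division genes at 10 or more UMIs per 100000 in each member, by library; the dashed line marks 8 genes. In P3 5 of 9 members lie above it, in P21 none of 16.

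Gene expression in members of STZ and control libraries was compared on counts summed per library with edgeR's quasi-likelihood test and Benjamini-Hochberg adjustment. All STZ libraries fitted came from mice with insulin implants, at different times after the dose. STZ, implant and time since the dose cannot be told apart here. The planned minimum of 5 members left 1 control library and hence no test. With a minimum of 3, which left 2 control and 5 STZ libraries, 35 of 8176 genes (0.428%) passed an adjusted p of 0.05, of which 34 (0.416%) were lower and 1 (0.0122%) higher in STZ. In the cell division list 13 of 23 genes tested were lower, with a median log2 change of -4.67 against 0.05 over all genes. Top2a averaged 12 and 55.7 per 100000 in the 2 control libraries, from 2 and 1 members with a UMI, and 0, 2.75, 0, 1.44 and 0 in STZ days 6, 12, 30, 42 and month 2. The groups do not overlap, and each control mean rests on 1 or 2 cells. Its log2 change was -5.18 ± 0.81 (SE; adjusted p = 0.00672). Mki67, a proliferation marker, changed by -5.43 ± 0.79 (adjusted p = 0.00328), and the cyclins Ccna2 and Ccnb1 by -8.24 ± 0.94 (adjusted p = 0.000601) and -6.55 ± 0.83 (adjusted p = 0.00131). Ndc80 (-8.26) and Ube2c, Esco2, Anln, Birc5 and Pbk (-6.54 to -5.52), which all act in cell division, were also lower. Fitted changes for genes at 0 in a group depend on the prior count and are no bounds.

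The count rested on single libraries. Without Control replicate 1 it was 1 and without Control replicate 2 it was 0 (223 at an unadjusted p under 0.05); in these fits the lone control is assumed to vary like the STZ libraries. It was 6 without month 2, 13 without day 42, 21 without day 30 and 54 without day 6. Cells thinned to 1 depth gave 7. The batch number, which equals the replicate number, gave 2 as a block. DESeq2 gave 63 with 23 higher, and all genes without a filter gave 233 with 161 higher. Without the 8 aberrant cells, which also took day 6 below 3 members and out of the fit, 61 were called, the 35 among them.

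Genes of other cell types were called as well. Ins1 was lower in STZ members (-3.32 ± 0.66, adjusted p = 0.0295), and Cela2a, an acinar elastase, was higher (4.20 ± 0.86, adjusted p = 0.0333; edgeR). Ins2, also among the 35, is a gene of the rule, which caps it in members, so its levels are given with no test: 1347 and 1106 in control members and 50.4 to 280 in STZ members. In acinar cells it was 1374 and 868 in the 2 control libraries and 45.2 to 262 in the 5 STZ libraries, the same direction. Cela2a in endocrine cells was 1.89 and 3.81 in controls and 8.13 to 32.5 in STZ libraries, while members had 1.51 and 0.601 against 9.64 to 53.8. Of 24 acinar genes tested 23 had positive changes in members, as had 4317 of all 8176 genes. The median change of the acinar genes was 2.66, against 0.05 over all genes, and Cela2a was the called one. The acinar list holds Prss2, which the rule caps in members. The part of RNA from other cells in these changes was not tested. Of 28 ductal genes tested other than Krt19, 0 passed, where 0.428% of all genes did, so the count tells nothing of the list. Spp1 changed by -0.31 ± 0.45, Lcn2 by 0.02 ± 0.59 and Mgst1 by -0.24 ± 0.43 (SE).

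The same fit of P3 and P21 against the 2 control libraries called 0 of 9295 genes (0.0%) by edgeR, with 341 at an unadjusted p under 0.05; DESeq2 called 19. The smallest adjusted p was 0.151, and Meg3 had a change of 4.82 ± 0.96 (adjusted p = 0.449). Leaving out P3 gave 66 calls and leaving out P21 gave 67, the remaining pup library then being assumed to vary like the controls.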

How the data were processed

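Counts of UMIs per gene and cell and a TM0.1M table were deposited by the authors. Per the submitters' processing notes the tools include UMI-tools 0.5.0, SAMtools 1.3.1, featureCounts 1.5.3 and TopHat2 2.1.0, with the mm10 build; their roles and settings are not given in the sources used here. Checked on the deposited values, TM0.1M is a signal scaled to 100000 over all genes but 8, mostly islet hormones, to within 0.005. The rule used TM0.1M; everything else used the counts, as UMIs per 100000 of all UMIs of a cell. Members and gene lists were chosen with earlier results of these data known. Endocrine cells (2001) had Ins2, Gcg, Sst or Ppy at 3000 or more and Prss2 under 1500; acinar cells (723) had Prss2 at 1500 or more and the 4 hormones below 3000.

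Genes are named where they are markers, rule genes, among the 25 with the largest smaller log2 ratio (mean of 20 or more), among the highest of 1 of 17 lists, hormones positive in at least 5 members, or the 10 largest called changes in each direction; further genes of the lists Top2a, Ins1 and the sub-cluster and pair genes were picked with their values known. Sums per library were fitted with edgeR 4.0.16 (TMM, filterByExpr), with DESeq2 1.42.0 as an alternative, in R 4.3.3; the fit was tested on simulated data. Other values used Python 3.11.15 and SciPy 1.17.1. Libraries held 1420536 to 26298456 UMIs. Members below 16199 UMIs (10) were left out where cells were thinned to that depth. The batch number used to pair libraries equals the replicate number and is not known to mark shared processing. Sets of read files whose names begin with m181030 occurred in Control replicate 2, of batch 2. They also occurred in STZ days 6 and 30 and month 2, of batch 1. Deviations of libraries with the same batch number correlated at -0.129 to 0.0993. Gene positions come from GENCODE and promoters from RefSeq. Results for some genes that the naming rule covers are not reported here.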

Additional observations from a re-analysis of the deposited data

Results flagged for a closer look

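The share of Krt19 cells in STZ day 12 replicate 1, 15.1%, stood apart from the other 7 STZ libraries with implants: the next was 4.58%, and the gap took up 0.697 of the range, above the 0.526 that Dixon's test allows for 8 libraries. For normally distributed shares, chance alone flags about 1 in 20 such groups. The shares here include libraries with no member, and their distribution was not tested, so this rate may not hold. In that library 31 of 33 members came from 2 of 4 sets of read files.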

How the results depend on the processing

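The difference in the share of members between STZ and control libraries kept its sign under other thresholds and denominators but ran from -0.387 to 2.61 points when single libraries were left out, turning without STZ day 12 replicate 1. With the batch number as a replicate block it was 0.404 points (exact permutation p = 0.5), and for pups 0.311 (leaving out single libraries, 0.0586 to 2.51); no setting passed 0.05 in either. The count of 110 genes 4-fold above both classes was 53 with a pseudocount of 5 and 94 to 148 otherwise. In STZ members, against 35 genes, DESeq2 called 63, no filter 233, thinned cells 7, the replicate block 2 and, chosen after seeing the data, leaving out the 8 aberrant cells, and with them the day 6 library, 61; leaving out single libraries gave 0 to 54. In pups, against 0, DESeq2 called 19, no filter 49, thinned cells 1 and the replicate block 0; single libraries left out gave 0 to 67. The causes were not tested. Log2 ratios that changed sign or became 0 were those of Cck and Gip: with Krt19 at 20 or more, Cck -0.31 and -0.31 and Gip -0.20 and -0.99 against endocrine and acinar cells; without STZ day 6 or without the 8 cells, Cck -0.13 and Gip -0.0066 against endocrine cells and Gip 0.0 against acinar cells. Leaving out single libraries gave -0.13 to 1.89 for Cck and -0.0066 to 1.72 for Gip against endocrine cells, and 0.0 to 1.94 for Gip against acinar cells. Of 666 recomputed values for named genes, these included, 608 stayed within 1 SD of libraries, 48 moved further and 10 changed sign or became 0. Few members per library, 3 to 33 where fitted, limit what can be seen.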
